A study of Rattus norvegicus with 10 samples.

Results

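The β-cell transcription factors are a set of 10 genes, chosen by name, whose proteins set up and maintain the insulin-producing cells of the pancreatic islet: Pdx1, Nkx6-1, Nkx2-2, Mafa, Neurod1, Isl1, Pax6, Rfx6, Foxa2 and Insm1. Values were at hand for 9 of the 10, out of 23918 genes with values, and all 9 were among the 12941 genes tested; Insm1 was not analysed here. Their mRNA was measured by RNA-seq in β-cells from islets of adult Sprague-Dawley rats, sorted by FACS on their autofluorescence and transfected with Lipofectamine RNAiMAX. One group received a pool of 4 siRNAs against rat Scrt1 (siScrt1, replicates A to E) and the other a negative control siRNA (siCtrl, replicates 1 to 5), and RNA was taken 48 h later in both. The knockdown is transient and in primary cells, and the labels do not say whether the 5 libraries of a group came from separate rats or cultures, so p-values measure the spread between these libraries only.

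These factors form a network in which each gene is controlled by several of the others. Foxa2, Rfx6, Pdx1 and Nkx2-2 act early, when pancreatic and endocrine progenitors are specified. Neurod1, Isl1 and Pax6 are shared by the endocrine cells of the islet, while Pdx1, Nkx6-1 and Mafa mark and maintain the β-cell and its transcription of the insulin genes. Scrt1 is a zinc-finger repressor of the Snail superfamily that binds E-box sequences, and lowering it in adult β-cells poses the question whether the level of these factors depends on it.

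The targeted gene was lower in every siScrt1 library. Scrt1 measured 8.78, 6.34, 8.60, 10.2 and 6.75 TPM in siCtrl 1 to 5 and 3.40, 2.53, 2.58, 1.24 and 0.928 TPM in siScrt1 A to E. TPM is the level of a transcript corrected for its length. The deposited TPM are scaled between libraries, and their total differs from library to library. It fell by 2.06 on the log2 scale (SE 0.308, adjusted p = 0.00618, limma), and the groups did not overlap. A library held between 11901342 and 17444034 reads. The sorted cells carried β-cell markers at high level, with the summed TPM of 6 of the 7 listed markers between 332029 and 614034. Glucagon (Gcg) mRNA was present at 203 to 624 TPM, while the α-cell factors Irx1 and Irx2 were at or below 0.816 TPM. The 6 acinar markers together reached at most 0.573 TPM in any library and the 3 measured endothelial markers at most 0.497. The summed duct, mesenchymal and immune markers reached at most 3.97, 5.26 and 2.28 TPM.

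All 9 measured factors were abundant. By mean TPM over the 10 libraries the order was Mafa at 487 ± 110, Pdx1 at 168 ± 27.9, Neurod1 at 166 ± 14.2, Pax6 at 160 ± 12.0, Nkx6-1 at 79.7 ± 7.07, Nkx2-2 at 69.0 ± 12.2, Isl1 at 55.5 ± 4.83, Foxa2 at 47.5 ± 4.44 and Rfx6 at 40.2 ± 4.60 (SD, n = 10). Mafa ranked 75th and Rfx6 1849th in mean TPM among the 12941 genes tested, so that the whole set lay at or above the 85.7th percentile. Mafa was above Pdx1 in 10 of 10 libraries, by 2.33 to 3.47 times. Pdx1, Neurod1 and Pax6 formed a group of near-equal level. Pdx1 exceeded Neurod1 in 6 of 10 libraries, and Neurod1 exceeded Pax6 in 9 of 10 by a ratio between 0.954 and 1.09. Pax6 stood above Nkx6-1 in 10 of 10 libraries, by 1.76 to 2.33 times. Below that point the neighbours kept their order in 9 or 10 of 10 libraries, but the mean ratio of a factor to the next was at most 1.25 and their ranges overlapped.

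**Figure D1:**
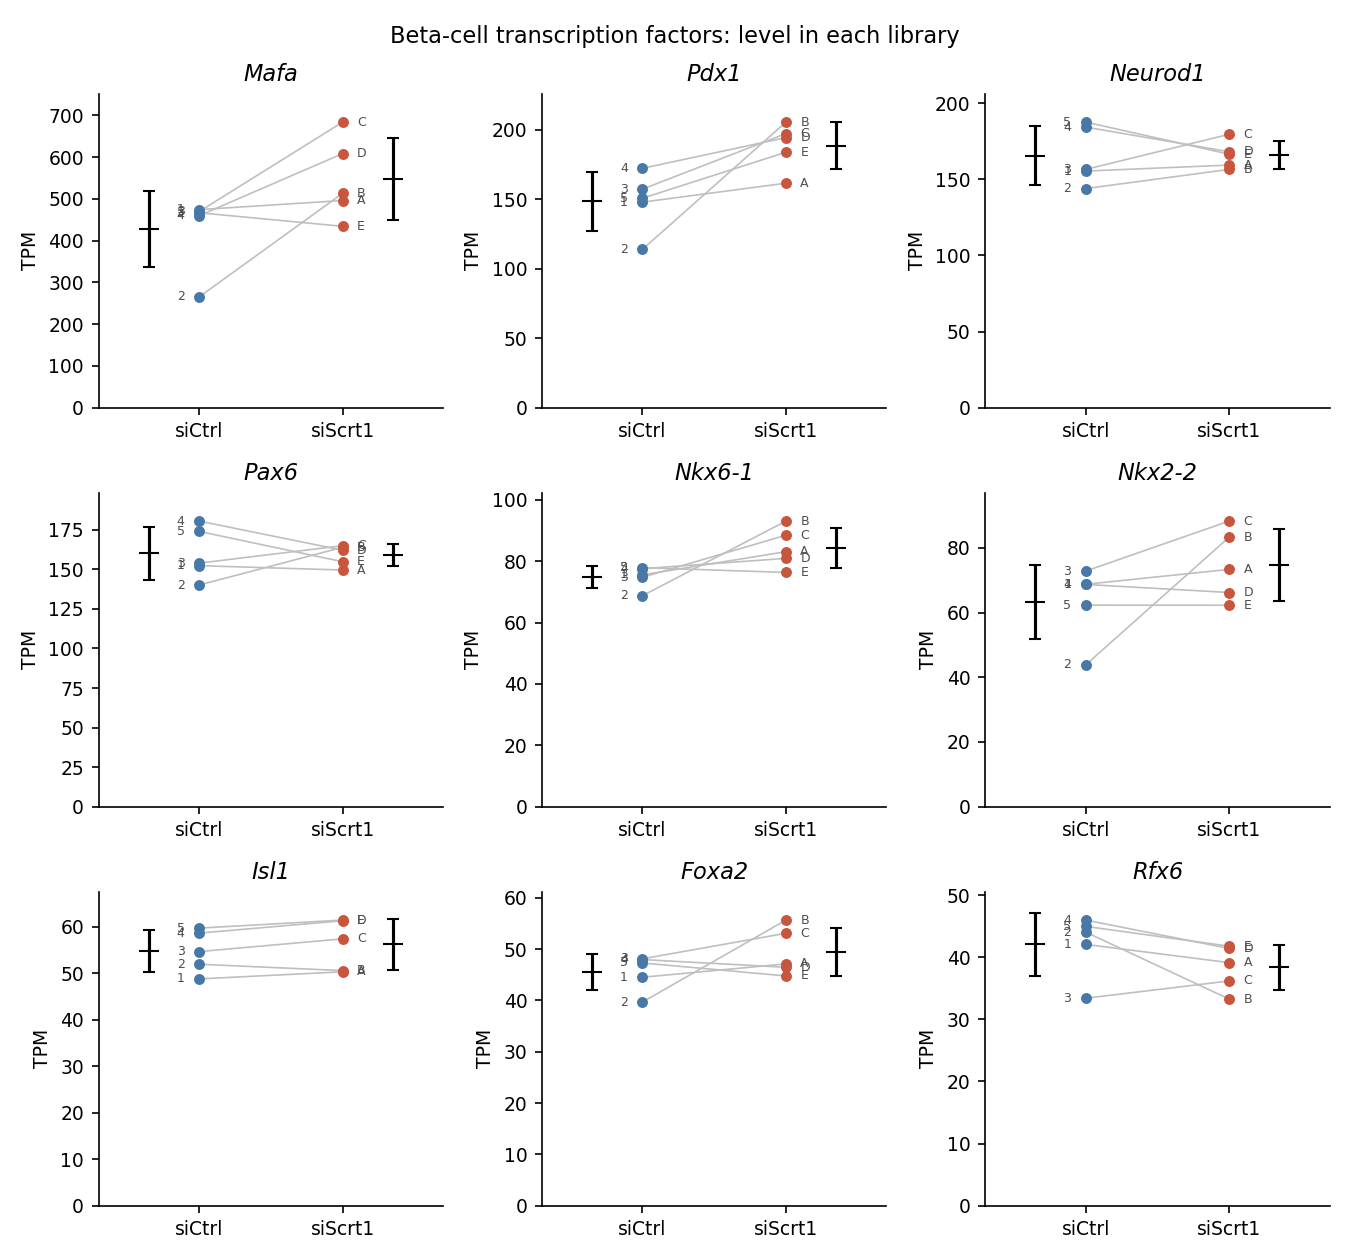
TPM of each of the 9 measured factors in siCtrl libraries 1 to 5 (blue) and siScrt1 libraries A to E (red), on linear axes that start at 0; grey lines join libraries with the same number in the deposited table, and black bars are mean ± SD (n = 5). The lowest point for Mafa, Nkx2-2 and Pdx1 is siCtrl 2, at 265, 43.8 and 114 TPM.

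None of the 9 factors passed the test between the groups. With limma on log2 scaled counts, 0 of 9 had an adjusted p under 0.05, where 1.05% of all genes tested did, and 0 of 9 passed with limma-voom, where 1.06% of all genes did. At an unadjusted p under 0.05 there were 3 of 9, Pdx1, Nkx6-1 and Mafa, against 11.1% of all genes. All 3 were higher in siScrt1, which together with that p was true of 5.34% of all genes. The groups overlapped in scaled counts for each factor, so that 0 of 9 were separated, against 3.51% of all genes. The same 3 were under that threshold with limma-voom, where 11.3% of all genes were. Of the 9, 7 had a higher mean in siScrt1, against 51.0% of all genes, and their median log2 fold change was 0.11 against 0.00351 over all genes tested. The count at an unadjusted p depended on single libraries: it was 1 of 9, Pdx1, without siCtrl 2 (9.06% of all genes), without siScrt1 B (9.30%) and without siScrt1 C (8.97%). It was 4 of 9 without siCtrl 3, where Rfx6, lower in siScrt1, was added, and 2 of 9 without siScrt1 D. It stayed at 3 without any other single library. The share of all genes was not counted for these other fits. The median log2 fold change of the 9 was lower at 0.064 without siCtrl 2 and at 0.068 without siScrt1 B, and higher at 0.147 without siScrt1 E. The number with a higher mean in siScrt1 was 5 without siCtrl 1 or without siScrt1 D. In bulk samples such as these, less RNA per cell and fewer cells of a type cannot be told apart.

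**Figure D2:**
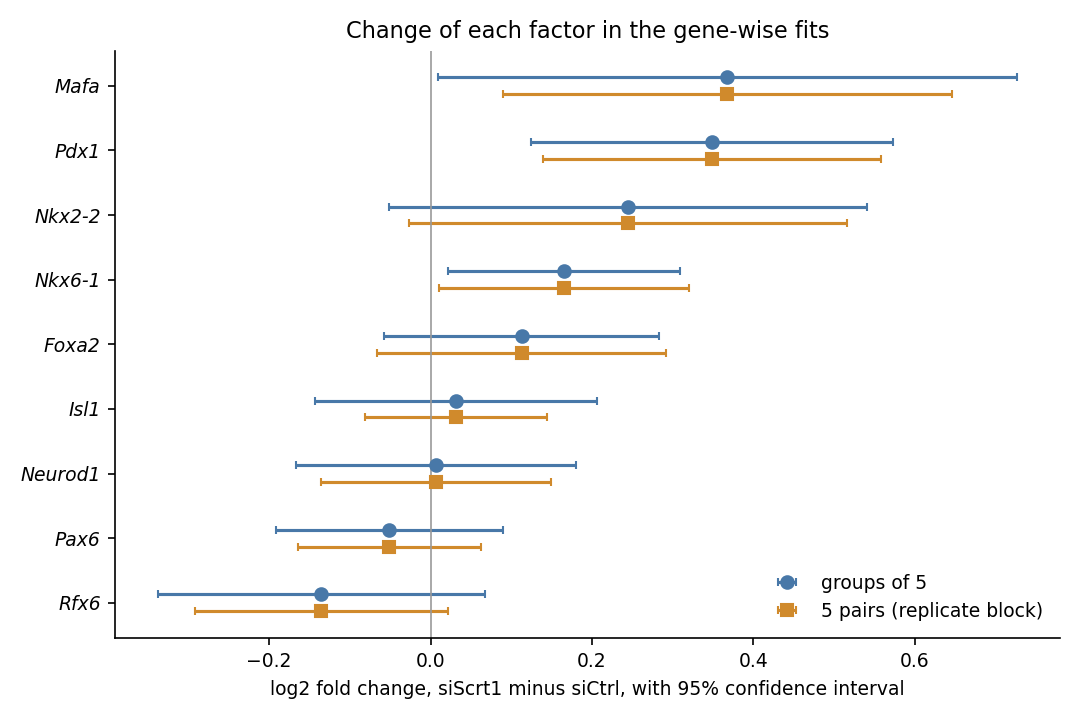
Log2 fold change of each factor, siScrt1 minus siCtrl, with its 95% confidence interval, from the fit on groups of 5 (blue circles) and the fit with the number shared by a pair of libraries as a block (orange squares). Intervals of Mafa, Pdx1 and Nkx6-1 lie above 0 in both fits, before adjustment over all genes; the other 6 include 0.

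Pdx1 and Mafa activate insulin transcription directly, and they showed the highest fold changes of the set. Pdx1 (ENSRNOG00000046458), a homeodomain factor without which the pancreas does not form, measured 148, 114, 157, 172 and 151 TPM in siCtrl 1 to 5. In siScrt1 A to E it measured 161, 205, 197, 194 and 184 TPM. Of the siScrt1 libraries 4 were above every siCtrl library, and siScrt1 A was below siCtrl 4. The mean was 148 ± 21.4 TPM in siCtrl and 188 ± 16.9 in siScrt1 (SD, n = 5 libraries each), and the fitted ratio was 1.27 (95% confidence interval 1.09 to 1.49). This difference had an unadjusted p of 0.00510 and an adjusted p of 0.176 (limma), and 0.101 with the pairs as a block. Without siCtrl 2 the log2 fold change was 0.26 instead of 0.35, with an adjusted p of 0.260.

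Mafa (ENSRNOG00000007668), a basic leucine zipper factor that comes on in mature β-cells, measured 474, 265, 470, 460 and 467 TPM in siCtrl 1 to 5. The siScrt1 libraries A to E held 496, 514, 684, 609 and 434 TPM. The control level was thus close to constant in all but siCtrl 2, the siScrt1 levels were spread more widely, and siScrt1 E was below 4 of the 5 controls. Means were 427 ± 90.6 TPM in siCtrl and 547 ± 98.7 in siScrt1 (SD, n = 5 libraries each), a fitted ratio of 1.29 (95% confidence interval 1.01 to 1.65). The adjusted p was 0.437 (limma) and 0.183 with the pairs as a block. Without siCtrl 2 the log2 fold change dropped from 0.37 to 0.20, with an adjusted p of 0.684.

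Promoter sequence is shown for Pdx1, the factor with the lowest p, for Nkx6-1, which was also under an unadjusted p of 0.05, and for Neurod1, whose fold change was nearest to 1. Each run is the 250 bases before the start of the gene, 5′ to 3′ on the strand of the gene, taken from RefSeq on build GRCr8, which is not the build the reads were assigned on. Capitals mark E-boxes, the hexamer CANNTG. Scratch and NeuroD-type proteins bind E-boxes, but a hexamer of this form need not be a site for either. The windows are Pdx1 at chr12:12799157-12799406, minus strand; Nkx6-1 at chr14:8273988-8274237, plus strand; and Neurod1 at chr3:84770455-84770704, minus strand.
Pdx1: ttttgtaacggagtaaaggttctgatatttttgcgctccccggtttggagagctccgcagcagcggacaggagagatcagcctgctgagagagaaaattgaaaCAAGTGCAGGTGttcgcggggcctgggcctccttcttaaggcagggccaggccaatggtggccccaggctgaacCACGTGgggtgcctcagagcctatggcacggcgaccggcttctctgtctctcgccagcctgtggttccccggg
Nkx6-1: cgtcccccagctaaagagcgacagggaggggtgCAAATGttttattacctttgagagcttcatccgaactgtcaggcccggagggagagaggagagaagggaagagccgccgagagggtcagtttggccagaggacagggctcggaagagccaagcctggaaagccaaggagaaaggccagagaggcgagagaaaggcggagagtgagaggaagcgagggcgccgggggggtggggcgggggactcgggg
Neurod1: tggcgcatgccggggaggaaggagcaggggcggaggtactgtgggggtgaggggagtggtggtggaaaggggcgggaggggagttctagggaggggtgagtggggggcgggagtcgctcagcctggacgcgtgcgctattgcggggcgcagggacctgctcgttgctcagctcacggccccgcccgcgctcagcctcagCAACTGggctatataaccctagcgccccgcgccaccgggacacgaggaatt

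RefSeq windows were matched by symbol for 7 of the 10 factors. The Pdx1 window held 3 E-boxes. The first base of CAAGTG lay 147 bases before the start, that of the adjoining CAGGTG 141 bases and that of CACGTG 73 bases. Nkx6-1 held CAAATG at 217 bases before the start, Neurod1 held CAACTG at 51 bases and Isl1 held CAATTG at 44 bases, while Nkx2-2, Pax6 and Foxa2 held 0. At least 1 E-box was therefore present in 4 of 7 windows, and in 65.5% of all 33469 RefSeq promoter windows of this length. The core CAGGTG, searched on both strands, was in 1 of 7 (Pdx1) and in 15.9% of all. The longer Scratch-type form CAACAGGTG, which contains that core, was in 0 of 7 and in 0.176% of all, on both strands. These matches describe the letters in the windows and not binding.

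Nkx6-1 and Nkx2-2 are homeodomain repressors that hold endocrine cells in the β-cell state by keeping genes of other islet cells off. Nkx6-1 (ENSRNOG00000002149) measured 75.6, 68.8, 74.8, 77.6 and 77.9 TPM in siCtrl 1 to 5 and 83.1, 93.1, 88.5, 80.9 and 76.3 TPM in siScrt1 A to E. The groups overlapped only through siScrt1 E, the other 4 siScrt1 libraries being above every control. The ratio was 1.12 (95% confidence interval 1.01 to 1.24), with an adjusted p of 0.363 (limma) and 0.280 with the pairs as a block. Its control libraries varied least of the 9 factors, with a coefficient of variation of 4.92% in TPM.

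Nkx2-2 (ENSRNOG00000012728) measured 68.7, 43.8, 72.8, 68.7 and 62.3 TPM in siCtrl 1 to 5 and 73.3, 83.3, 88.3, 66.2 and 62.3 TPM in siScrt1 A to E. Here siScrt1 D and E lay within the range of the controls, and siCtrl 2 was again the lowest library. The ratio of 1.18 had a 95% confidence interval from 0.965 to 1.45 and an adjusted p of 0.549 (limma). Without siCtrl 2 its log2 fold change was 0.12 instead of 0.24, with an adjusted p of 0.837.

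The factors shared by islet endocrine cells had ratios close to 1. Neurod1 (ENSRNOG00000005609), a basic helix-loop-helix activator that binds the E-box of the insulin promoter, measured 155, 144, 156, 184 and 187 TPM in siCtrl 1 to 5 and 159, 156, 179, 168 and 166 TPM in siScrt1 A to E. All 5 siScrt1 values lay inside the range of the controls. The ratio was 1.00 with a 95% confidence interval of 0.891 to 1.13 (adjusted p = 0.987, limma).

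Isl1 (ENSRNOG00000012556), a LIM-homeodomain factor, measured 48.8, 52.0, 54.7, 58.7 and 59.8 TPM in siCtrl 1 to 5 and 50.4, 50.6, 57.4, 61.3 and 61.5 TPM in siScrt1 A to E. The libraries of a pair lay close to each other, the log2 difference within a pair running from -0.04 to 0.06. Its ratio was 1.02 (95% confidence interval 0.905 to 1.15, adjusted p = 0.917, limma). With the pairs as a block the standard error of its log2 fold change was 0.0509 instead of 0.0810.

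Pax6 (ENSRNOG00000004410), a paired-box and homeodomain factor needed for hormone gene expression in several islet cell types, measured 152, 140, 154, 181 and 174 TPM in siCtrl 1 to 5 and 150, 164, 165, 162 and 155 TPM in siScrt1 A to E. In TPM the siScrt1 values again lay within those of the controls. In the scaled counts used for the ratio, siScrt1 A (3918) and siScrt1 B (3984) were below the lowest control, siCtrl 2 (4020). Its ratio was 0.965 (95% confidence interval 0.875 to 1.06, adjusted p = 0.821, limma). For none of Neurod1, Isl1 and Pax6 does the missed threshold show equal levels; the intervals give the sizes that remain possible.

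Foxa2 and Rfx6 act upstream of much of the network, Foxa2 as a forkhead factor that opens chromatin in endoderm and Rfx6 as a winged-helix factor needed for islet cell differentiation and for insulin secretion in the adult. Foxa2 (ENSRNOG00000013133) measured 44.5, 39.7, 48.1, 48.0 and 47.3 TPM in siCtrl 1 to 5 and 47.1, 55.7, 53.1, 46.5 and 44.8 TPM in siScrt1 A to E. Only siScrt1 B and C were above every control. The ratio was 1.08 (95% confidence interval 0.961 to 1.22, adjusted p = 0.636, limma).

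Rfx6 (ENSRNOG00000027949) had the lowest ratio of the set. It measured 42.1, 44.1, 33.4, 46.0 and 45.0 TPM in siCtrl 1 to 5 and 39.1, 33.3, 36.2, 41.4 and 41.8 TPM in siScrt1 A to E. All 5 siScrt1 libraries were below siCtrl 1, 2, 4 and 5, but siCtrl 3 was close to siScrt1 B, the lowest library. The ratio was 0.911 (95% confidence interval 0.792 to 1.05), and the adjusted p was 0.632 (limma), 0.379 with the pairs as a block and 0.261 without siCtrl 3.

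The table numbers the libraries 1 to 5 in each group, and the differences within these pairs showed how evenly a factor moved. With the pair as a block, 0 of 9 factors passed, where 2.00% of all genes did, and the same 3 factors had an unadjusted p under 0.05, against 16.1% of all genes. Pdx1 was higher in siScrt1 in 5 of 5 pairs, the only factor of the 9 for which this held, against 8.01% of all genes. Its log2 differences ran from 0.13 to 0.85. Nkx6-1, Mafa and Isl1 were higher in 4 of 5 pairs, Nkx2-2, Neurod1 and Foxa2 in 3 of 5, and Pax6 and Rfx6 in 1 of 5. The pair of siCtrl 2 and siScrt1 B stood apart: its log2 difference was 0.95 for Mafa, 0.93 for Nkx2-2, 0.85 for Pdx1, 0.49 for Foxa2, 0.44 for Nkx6-1 and -0.41 for Rfx6, the widest of the 5 pairs for each of these 6 factors.

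**Figure D3:**
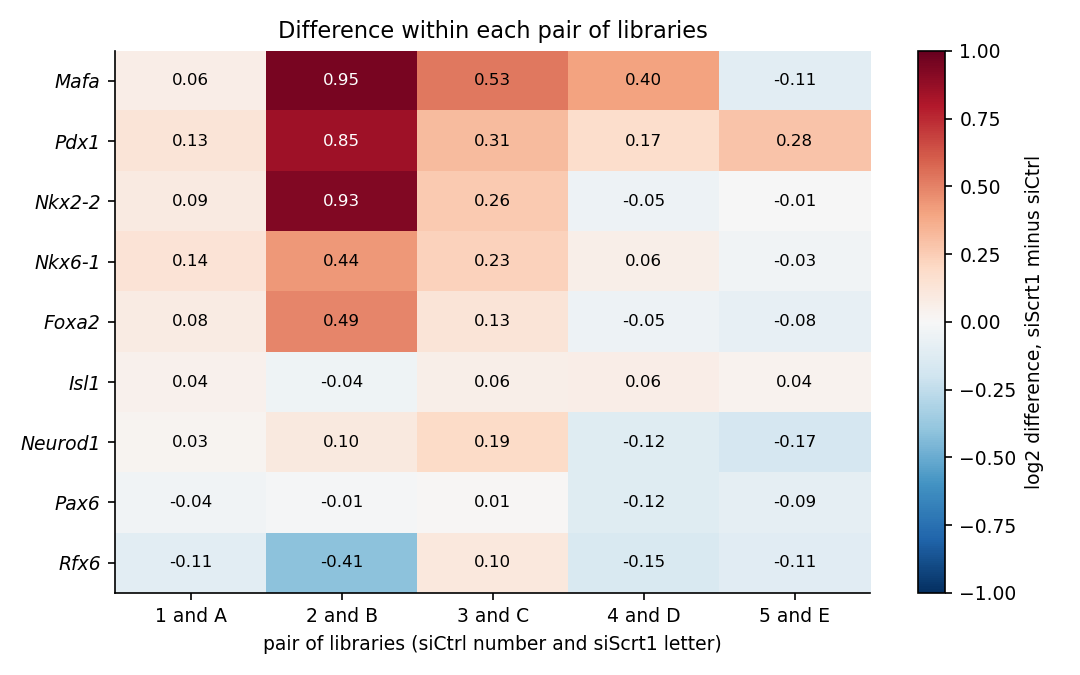
Log2 difference in scaled counts, siScrt1 minus siCtrl, of each factor (rows) within each pair of libraries with the same number in the deposited table (columns); the values are printed in the cells and the colour scale runs from -1 to 1. The column for siCtrl 2 and siScrt1 B holds the values farthest from 0 for 6 of the 9 factors.

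In scaled counts siCtrl 2 was the lowest of all 10 libraries for 6 of the 9 factors, Pdx1, Nkx6-1, Nkx2-2, Mafa, Neurod1 and Foxa2. The factors lay on average 0.23 below the mean of their group there on the log2 scale, while the median over all genes tested was 0.00565 above it. Other values of this library were also at the edge. The summed β-cell markers, at 332029 TPM, were the lowest of the 10. So were the α-cell markers (204 TPM, against 221 to 624 in the others) and the δ- and PP-cell markers (45.2 TPM, against 59.3 to 214). The total TPM of this library was the lowest of the 10 as well. The sums were not divided by that total, so their rank does not show a lower share of these markers. The part of these values in the low factor levels was not tested. Deviations from the group means followed the average of the other 8 factors closely for Pdx1 (Pearson r = 0.85) and Mafa (0.80), less closely for Nkx6-1 (0.62) and Isl1 (0.33), and not for Rfx6 (-0.24). These correlations are descriptions over 10 libraries that share siCtrl 2 and its depth. Outside the set, the genes whose deviations were most like the average of the 9 factors were Dyrk1b (r = 0.98), LOC103690156 (0.98) and Xab2 (0.97), chosen from all genes tested as the 3 highest over these 10 libraries.

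The deposited values are per transcript, and 12 transcripts belong to the 9 factors. None of the 12 passed (lowest adjusted p = 0.299, limma), where 0.417% of the 17511 transcripts tested did, and none passed with the pairs as a block, where 0.166% did. At an unadjusted p under 0.05 there were 2, those of Pdx1 and Nkx6-1, against 9.35% of all transcripts. All factors but Neurod1 and Pax6 had a single transcript. For Neurod1 the transcript ENSRNOT00000007662 carried 94.9% ± 0.901 of the TPM in siCtrl and 94.8% ± 1.02 in siScrt1 (SD, n = 5 libraries each). Pax6 was spread over 3 transcripts. ENSRNOT00000089525, of 1302 bases, carried 39.0% ± 6.42 in siCtrl and 43.9% ± 9.16 in siScrt1. ENSRNOT00000005882, of 2147 bases, carried 37.8% ± 2.17 and 35.4% ± 6.20, and ENSRNOT00000006302, of 2342 bases, 23.2% ± 5.67 and 20.7% ± 3.84 (SD, n = 5 libraries each). In siCtrl 2 the share of the shortest was 27.9%, and in siScrt1 B it was 56.0%, the lowest and the highest of the 10 libraries. None of these shares passed a test between the groups (exact two-sided permutation tests, 5 shares, adjusted p between 0.860 and 0.881). Since kallisto divides reads that fit several transcripts, the split of Pax6 reads is an estimate.

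**Figure D4:**
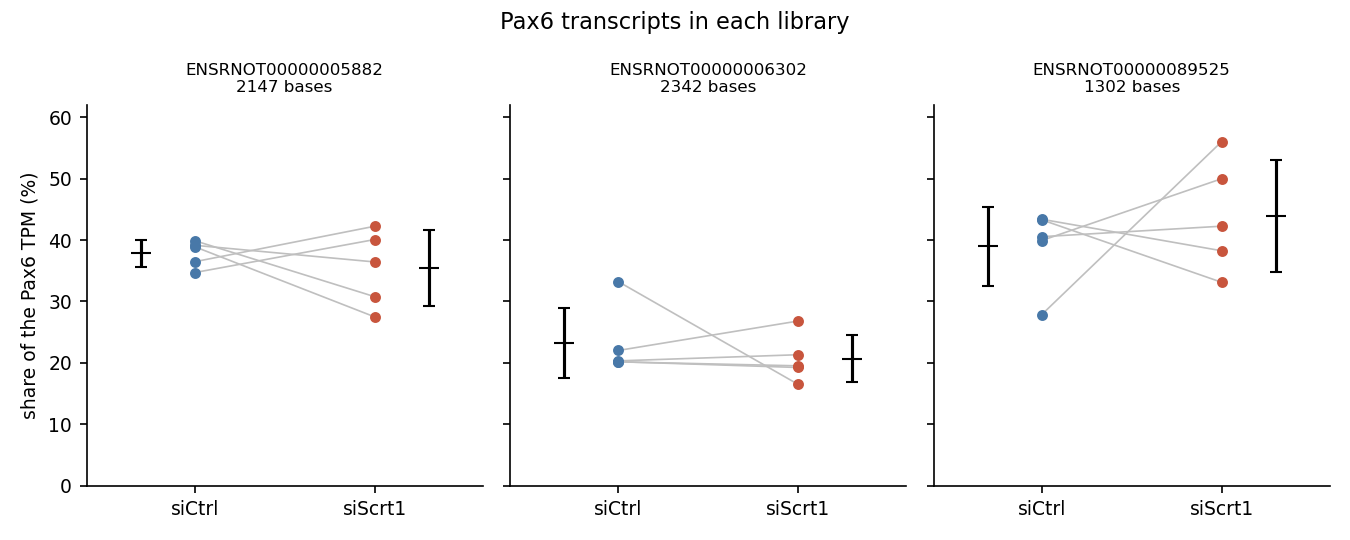
Share of the Pax6 TPM carried by each of its 3 transcripts in the 5 siCtrl (blue) and 5 siScrt1 (red) libraries, in percent on axes that start at 0; grey lines join pairs and black bars are mean ± SD (n = 5). The groups overlap for each transcript.

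Other transcription factors of islet cells were read from the same fit. Of 17 listed, 15 had values and 12 were tested; 0 passed, against 1.05% of all genes, and 3 had an unadjusted p under 0.05, against 11.1% of all genes. All 3 were higher in siScrt1, which together with that p was true of 5.34% of all genes, and the median log2 fold change of the 12 was 0.10 against 0.00351 over all genes. The 3 were Hnf4a, a nuclear receptor of the HNF network, with 5.46 ± 0.433 TPM in siCtrl and 6.80 ± 0.570 in siScrt1 (adjusted p = 0.134, limma), the homeodomain factor Mnx1 with 19.8 ± 2.51 and 25.5 ± 2.97 (adjusted p = 0.203), and the zinc-finger factor Tshz1 with 49.4 ± 5.69 and 58.6 ± 3.50 (adjusted p = 0.258; SD, n = 5 libraries each). With the pairs as a block their adjusted p-values were 0.0708, 0.0963 and 0.0905. Neurog3, which starts endocrine differentiation, had at most 1 read in any library and was not tested.

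Transcription factors of other pancreatic lineages were scarce. Of 17 listed, 16 had values and only 7 were tested; 0 passed, with 0 at an unadjusted p under 0.05 in limma and in limma-voom, where 11.1% and 11.3% of all genes were. Bhlha15, a factor of secretory cells, had a log2 fold change of 0.08 (adjusted p = 0.724, limma), and Sox9, of ducts and progenitors, one of 0.33 at a mean of 0.210 TPM in siCtrl (adjusted p = 0.749). Rest, a repressor of neuroendocrine genes, had at most 4 reads in any library and was not tested.

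Proteins that work with these factors, such as cofactors and chromatin enzymes, were read in the same way. Of 21 listed, 19 had values, and 20 Ensembl genes were tested because Rcor1 has 2; 0 passed, against 1.05% of all genes, and 4 had an unadjusted p under 0.05, against 11.1% of all genes, 3 higher and 1 lower in siScrt1. The median log2 fold change of the 20 was 0.03. Crebbp, a histone acetyltransferase, had a log2 fold change of 0.29 (adjusted p = 0.273), Ssbp3, which binds the LIM partner Ldb1, 0.18 (adjusted p = 0.293), and the corepressor gene Rcor1 (ENSRNOG00000049783) -0.22 (adjusted p = 0.293, all limma). The other Rcor1 entry (ENSRNOG00000008067) had -0.04 (adjusted p = 0.932, limma). It was the more abundant, at a mean of 10.2 TPM in siCtrl against 5.86.

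Genes that these factors are known to activate in β-cells made up the last list. Of 21 listed, 19 were tested; 0 passed, against 1.05% of all genes, and 1 had an unadjusted p under 0.05, which at 5.26% of the list was below the 11.1% of all genes. The median log2 fold change of the 19 was 0.03 against 0.00351 over all genes. The gene under that p, Gjd2, which encodes the gap junction protein connexin 36, had 50.2 ± 5.54 TPM in siCtrl and 41.9 ± 2.74 in siScrt1 (SD, n = 5 libraries each), was lower in 5 of 5 pairs, and had an adjusted p of 0.204 (limma) and 0.0653 with the pairs as a block. Sytl4, a protein of insulin granules, had a log2 fold change of -0.14 (adjusted p = 0.456, limma, and 0.233 with the pairs as a block) and was lower in 5 of 5 pairs. Abcc8, a subunit of the KATP channel, had 0.13 (adjusted p = 0.517, and 0.344 with the block). With limma-voom, 0 genes passed in each of the 4 related lists, and the counts at an unadjusted p under 0.05 were again 3, 0, 4 and 1. With the pairs as a block, 0 passed in each list, and these counts were 3, 0, 5 and 2, against 16.1% of all genes. Sytl4 was the gene added in the last list.

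**Figure D5:**
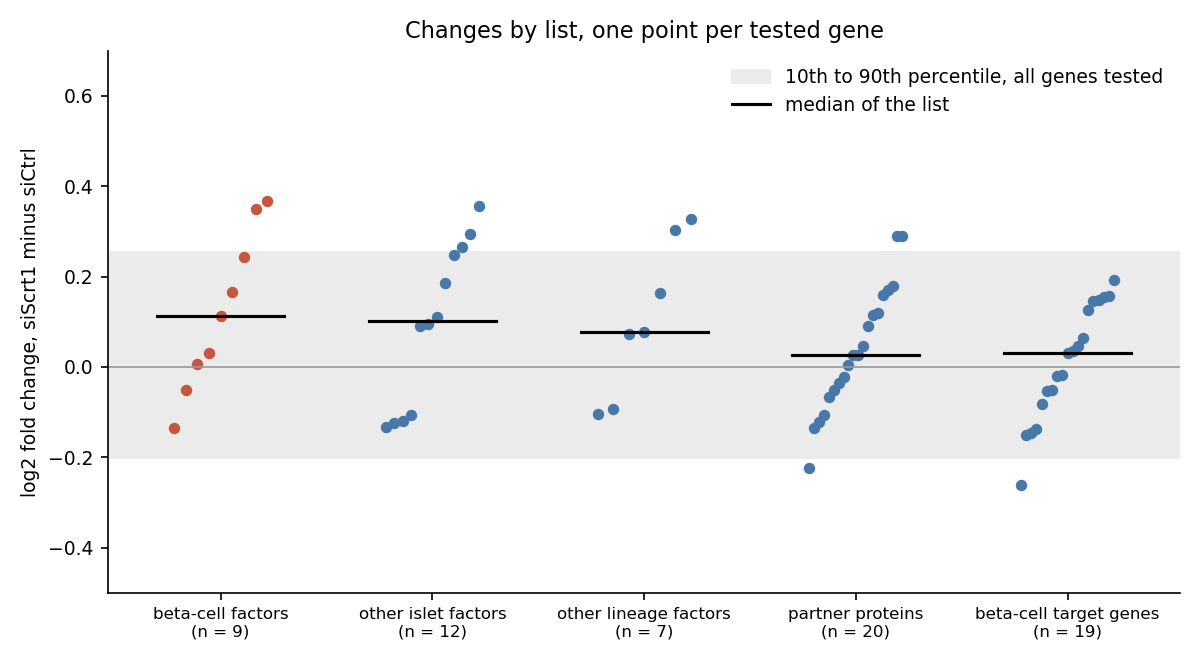
Log2 fold change, siScrt1 minus siCtrl, of every tested gene of the β-cell factors (red) and of the 4 related lists (blue), sorted within each list; black lines are list medians and the grey band holds the 10th to the 90th percentile of all 12941 genes tested, -0.20 to 0.26. Among the β-cell factors Mafa and Pdx1 lie above the band, and none of the genes shown passed at an adjusted p of 0.05.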

How the data were processed

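Single-end RNA-seq reads had been assigned by the authors to rat Rnor6 transcripts with kallisto, and differential expression was computed with Sleuth (versions not given in the sources used here). The deposited table holds estimated counts and TPM per transcript and library. The deposited values show that both had been scaled between libraries, so they were treated as a scaled signal and not as raw counts; how they were scaled is not given in the sources used here. The table lists libraries as 1 to 5 in each group. Counts and TPM were summed per Ensembl gene. Division by the value of 1 read gave the reads quoted. Genes at the CPM of 10 reads in a median library in at least 5 libraries, with 15 reads or more in total, were tested with limma 3.58.1 (R 4.3.3, lmFit, eBayes with trend) on log2(scaled count + 0.5), two-sided, Benjamini-Hochberg over all 12941 genes, threshold 0.05. Fold changes of low genes are understated on this scale. Transcripts needed 5 reads in 5 libraries. On simulated data the gene fit, run on 12941 genes, recovered 92% of 200 genes changed 2-fold. Every simulated gene had the same relative spread between libraries, and no pairs were simulated. The 92% is therefore not the share for a gene with a wider spread. Smaller changes, such as those fitted for the factors, were not simulated, so that share does not apply to them. Same-numbered libraries deviated together (r = 0.351, 0.131, 0.231, 0.198 and 0.234), so the number was also fitted as a block. The labels do not state what the numbers stand for.

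Named outside the set were Scrt1, Neurog3, Rest, the 3 genes with the lowest p of each related list, and the 3 most like the mean of the factors; some genes that met this rule are not reported here. The factors, lists and rules were chosen with earlier results of these data known. Alternatives were other scalings, filters, pseudocounts, TPM, limma-voom, the block, and leaving out libraries.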

Additional observations from a re-analysis of the deposited data

Results flagged for a closer look

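Among 52 groups of 5 libraries examined, from the named genes in each group, 4 had 1 library set apart from the other 4 by more than Dixon's 95% limit, where about 2.6 would be by chance. Mafa was at 265 TPM in siCtrl 2, against 460 to 474 in the other siCtrl libraries. Tshz1 was at 39.5 TPM in the same library, against 49.6 to 53.3. Hnf4a was at 7.80 TPM in siScrt1 C, against 6.37 to 6.73 in the other siScrt1 libraries. Sox9 was at 0.369 TPM in siCtrl 1, against 0.140 to 0.195.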

How the results depend on the processing

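None of the 9 factors, and none of the tested genes of the 4 related lists, passed at an adjusted p under 0.05 under any of the 21 alternatives run, nor did a transcript of the factors under its 12. For Pdx1 the adjusted p ran from 0.101 (replicate block) to 0.356, for Mafa from 0.183 (block) to 0.691, for Nkx6-1 from 0.280 to 0.604. The block, which followed the pairing of library numbers, changed no call among them, though it moved the calls over all genes from 136 to 259. Pdx1, Nkx6-1, Nkx2-2, Mafa, Foxa2, Pax6 and Rfx6 kept their direction throughout. Leaving out 1 library gave log2 fold changes from -0.04 to 0.054 for Neurod1, which turned negative in 5 of them (-0.013, -0.040, -0.013, -0.021 and -0.00012), from -0.01 to 0.071 for Isl1 (negative at -0.011, -0.0016 and -0.0017), and from -0.13 to 0.11 for LOC103690156. The Scrt1 difference passed throughout except when both libraries numbered 4 were left out, an alternative chosen after seeing the data (-1.82, adjusted p = 0.0621, limma); there were then 4 libraries a group. Depth did not limit the factors, each with at least 822 reads in every library, but Neurog3 and Rest were too low to test.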
